A study of Rattus norvegicus with 17 samples.

Results

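The mRNA of 9 nuclear receptors was followed in rat liver: Nr1i2, Nr1i3, Nr1h3, Rxra, Hnf4a, Nr5a2, Rora, Esrra and Thrb. They were taken by gene symbol from the array's annotation as receptors of xenobiotic, lipid, bile acid, clock and thyroid hormone signalling, and each was read at its brightest probe set over all 17 arrays. The 9 genes are 9 of 14217 genes measured with a single symbol. Male Harlan Sprague-Dawley rats were given a flame retardant and plasticizer of the aryl phosphate class, isopropylated phenol phosphate (IPP), by oral gavage in corn oil on 4 successive days, and the left liver lobe was sampled on day 5. The vehicle group of 5 rats received corn oil, and 3 rats each received 76.5, 153, 305.5 or 611 mg/kg of IPP per dose, which is 0.169 mmol/kg at the lowest and 1.35 mmol/kg at the highest dose. The treatment protocol gives 76.5 and 305.5 as 77 and 306 mg/kg. Each rat gave 1 array. No allele or transgene is named in the labels, and age is not given in the sources used here.

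Nuclear receptors are transcription factors whose activity is set largely by ligands, by partner proteins and by movement into the nucleus. PXR (encoded by Nr1i2) and CAR (Nr1i3) sense drugs and other foreign compounds and switch on genes for their oxidation, conjugation and export, and RXR alpha (Rxra) is their partner on DNA. The amount of a receptor's mRNA and the activity of the receptor are separate quantities, and the arrays measured only the mRNA of receptors and of target genes.

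Values were log2 signals and ran from 2.61 to 15.4, with array medians from 6.29 to 6.40. Of 10 hepatocyte markers 9 were measured, and by limma 0 were called at any dose, with 0 to 2 at an unadjusted p under 0.05. Across the doses 0.267% to 7.46% of all genes were called and 10.7% to 24.2% had such an unadjusted p. The hepatocyte markers include Hnf4a, which is also among the 9 receptors, so the 2 sets are not separate. Albumin (Alb) had a mean log2 signal of 15.3, at the top of the range of values. The arrays that stood apart from the others were those of 611 mg/kg rat 2 and of 76.5 mg/kg rats 2 and 3. On the first, the 3' minus 5' difference of the GAPDH control probe sets, which widens as RNA is degraded, was 2.89, against 0.93 to 1.56 on the 16 other arrays. The array weights of limma were 0.309 for this array and 0.306 and 0.267 for the other pair. The remaining array at 76.5 mg/kg, that of rat 1, had a weight of 5.04. The number of arrays, 3 per dose, limits the precision of the differences.

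None of the 9 receptor mRNAs passed the test at any dose. Differences are log2 dose minus vehicle from 1 limma fit over all 17 arrays, with Benjamini-Hochberg adjustment over all 14217 genes and a call at an adjusted p under 0.05. All 4 doses share the 5 vehicle rats. Each gene has 1 variance estimate over all groups, so omitting a rat of another dose changes the p and not the difference. At 76.5 mg/kg 0 of 9 receptors were called, where 0.267% of all genes were. At 153 mg/kg 0 of 9 were called against 0.746% of all genes, and at 305.5 mg/kg 0 of 9 against 2.22%. At 611 mg/kg 0 of 9 were called against 7.46% of all genes. With such background shares, 0 of 9 does not set the receptors apart from other genes.

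The other contrasts gave the same count. For the mean of the 4 doses against vehicle 0 of 9 were called (4.01% of all genes), for the slope over the rank of the dose 0 of 9 (6.74%), for any difference among the 5 groups 0 of 9 (3.47%), and for 611 against 305.5 mg/kg 0 of 9 (0.324%). At an unadjusted limma p under 0.05 the count was 1 at 76.5 mg/kg (10.7% of all genes), 1 at 153 mg/kg (11.9%), 3 at 305.5 mg/kg (13.5%) and 2 at 611 mg/kg (24.2%). It was 3 for all treated rats (18.1%), 3 for the slope (21.3%), 2 for any difference (20.1%) and 0 for 611 against 305.5 mg/kg (16.0%). The median difference of the 9 receptors was -0.06, -0.05, 0.08 and -0.12 from the lowest to the highest dose, and that of all genes was 0.01, 0.01, 0.01 and -0.003. The median size of the difference, sign ignored, was 0.12, 0.11, 0.18 and 0.16 for the receptors from the lowest to the highest dose. For all genes it was 0.10, 0.10, 0.10 and 0.14. For all treated rats it was 0.08 for both, and for the slope 0.04 for the receptors and 0.03 for all genes.

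The intervals say how large a change could have been missed. Over the 9 receptors and 4 doses, the 36 differences ran from -0.69 to 0.40, and the lowest adjusted limma p was 0.166. Of the 36 intervals at 95% confidence, 34 lay within 1 log2 unit of no change, 22 lay within 0.5 log2 units, and 29 contained 0. The intervals that reached beyond 1 log2 unit were those of Rora at 76.5 and 305.5 mg/kg. The half-width of an interval was 0.20 for Esrra and 0.66 for Nr1i3. When the 5 group means of each receptor were put in order, 0 of the 36 pairs of neighbours differed at an unadjusted limma p under 0.05, the lowest p being 0.111 (0.999 after adjustment over the pairs). Neighbours in such an order are the groups that lie closest, so this count cannot show that the groups are alike. It says only that the order of adjacent means is not resolved.

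**Figure D1:**
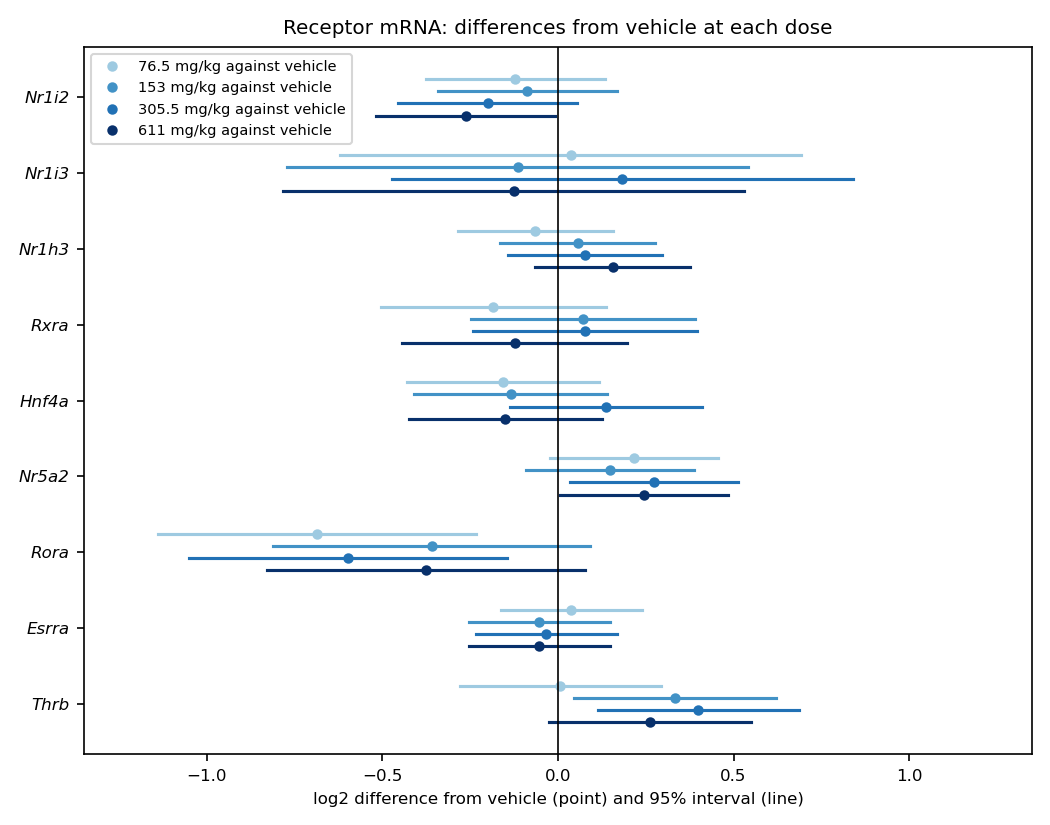
Log2 difference from vehicle (point) and 95% interval (line) for each of the 9 receptor mRNAs at 76.5, 153, 305.5 and 611 mg/kg, from the limma fit over 17 arrays. The 36 differences lie between -0.69 (Rora at 76.5 mg/kg) and 0.40 (Thrb at 305.5 mg/kg), and 29 of the intervals contain 0.

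PXR mRNA (Nr1i2, probe set 1369270) had its lowest group mean at the highest dose, as did the mRNA of the other xenobiotic sensor, CAR. The vehicle rats had log2 signals of 9.75, 9.97, 9.85, 10.09 and 9.85, a mean of 9.90 ± 0.13 (SD, n = 5). The 3 rats at 76.5 mg/kg had 9.70, 9.77 and 9.87, and those at 153 mg/kg 9.96, 9.85 and 9.63. Of these 6 rats 2 were below the lowest vehicle rat. The 3 rats at 305.5 mg/kg had 9.97, 9.45 and 9.68, and those at 611 mg/kg 9.59, 9.48 and 9.85, a mean of 9.64 ± 0.19 (SD, n = 3). In all, 10 of 12 treated rats were below the vehicle mean and 6 below the lowest vehicle rat, while at each dose at least 1 rat lay inside the vehicle range. The difference at 611 mg/kg was -0.26 ± 0.12 (SE), with an interval from -0.52 to -0.01 and an adjusted limma p of 0.195. The sample is whole tissue, so fewer cells of a type and less RNA per cell cannot be told apart here or in the results that follow.

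CAR mRNA (Nr1i3, probe set 1368797) varied widely between rats. Its residual SD around the group means was 0.50, which is 3.27 times that of the median gene and higher than in 98.8% of genes. The vehicle rats had 9.13, 9.15, 8.11, 8.79 and 8.79. The rats at 76.5 mg/kg had 8.88, 9.66 and 7.95, so that both the highest and the lowest value of the 17 rats fell in a single dose group, on the arrays of rats 2 and 3 that stood apart. The rats at 153 mg/kg had 8.73, 8.91 and 8.40, those at 305.5 mg/kg 9.47, 8.47 and 9.0, and those at 611 mg/kg 8.54, 8.46 and 9.01. The groups overlapped at every dose, and 6 of 12 treated rats were above the vehicle mean. The differences were 0.04, -0.11, 0.18 and -0.13 from the lowest to the highest dose, each with an SE of 0.31.

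LXR alpha (Nr1h3, probe set 1387365), a sensor of oxidised cholesterol that drives fat synthesis and sterol export, had a vehicle mean of 10.60 ± 0.12 (SD, n = 5). The vehicle rats ranged from 10.45 to 10.72 and the treated rats from 10.34 to 10.91, and 8 of 12 treated rats were above the vehicle mean. The largest difference was 0.16 ± 0.10 (SE) at 611 mg/kg, with an adjusted limma p of 0.375. RXR alpha (Rxra, probe set 1369101), the shared partner of PXR, CAR, LXR and the thyroid hormone receptor, had a vehicle mean of 7.34 ± 0.18 (SD, n = 5) and differences of -0.18, 0.07, 0.08 and -0.12. The lowest Rxra value, 6.70, came from 76.5 mg/kg rat 2, and the value next to it, 7.00, from 611 mg/kg rat 2. Both arrays are among those that stood apart. Without the 3 arrays that stood apart the Rxra difference at 76.5 mg/kg was 0.04. It is then the value of rat 1 alone minus the vehicle mean.

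HNF4 alpha (Hnf4a), which maintains hepatocyte identity, and LRH-1 (Nr5a2), which promotes bile acid synthesis genes, had several probe sets each. RefSeq lists 2 start sites for Hnf4a and 1 for Nr5a2 in the rat assembly GRCr8, and windows from 250 bases before to 50 after the start were read for them. The window of the downstream Hnf4a start is shown because it holds a close pair of HNF1 half-sites, the letters GTTAAT, and that of Nr5a2 because it was the only one among the receptors' 10 windows with the nuclear receptor half-site AGGTCA. Capitals mark these matches on either strand, so that GTTAAT on the reverse strand reads ATTAAC. The first window is at chr3:172641586-172641885 on the plus strand and the second at chr13:50984889-50985188 on the minus strand.
Hnf4a: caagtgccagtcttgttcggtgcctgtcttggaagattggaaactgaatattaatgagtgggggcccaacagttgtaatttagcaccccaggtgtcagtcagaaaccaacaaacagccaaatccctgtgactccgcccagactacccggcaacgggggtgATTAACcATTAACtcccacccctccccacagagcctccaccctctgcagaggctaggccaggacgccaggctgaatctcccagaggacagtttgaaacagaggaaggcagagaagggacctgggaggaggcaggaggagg
Nr5a2: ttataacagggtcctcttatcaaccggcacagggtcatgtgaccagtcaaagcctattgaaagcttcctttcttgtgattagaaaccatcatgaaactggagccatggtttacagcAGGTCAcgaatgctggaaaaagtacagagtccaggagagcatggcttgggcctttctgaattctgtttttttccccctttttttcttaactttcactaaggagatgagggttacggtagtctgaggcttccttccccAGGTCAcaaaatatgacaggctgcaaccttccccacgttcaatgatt
Counted from the start, the Hnf4a matches ran from -90 to -85 and from -83 to -78. In the Nr5a2 window the first match ran from -134 to -129, and the other lay after the start. Of 33469 RefSeq windows of the same 300 bases, 16.2% held AGGTCA and 7.45% held GTTAAT on either strand. A match of letters describes the sequence and shows no binding.

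The probe sets of Hnf4a disagreed in sign. The brightest, 1392969, had a vehicle mean of 12.55 ± 0.13 (SD, n = 5), vehicle values of 12.48, 12.49, 12.58, 12.76 and 12.43, and values of 12.46, 12.48 and 12.25 at 611 mg/kg. The rats at 76.5 mg/kg had 12.41, 12.09 and 12.68, those at 153 mg/kg 12.36, 12.45 and 12.42, and those at 305.5 mg/kg 12.34, 12.87 and 12.85. No dose was clear of the vehicle range, and the values at 305.5 mg/kg lay on both sides of it. Its differences were -0.16, -0.13, 0.14 and -0.15, with an adjusted limma p of 0.50 at 611 mg/kg. Probe set 1382496 gave 0.16, 0.45, 0.27 and 0.48 at the same doses, and probe set 1369289 gave 0.13, 0.40, 0.29 and -0.10. Neither was called, the adjusted limma p over all 20826 probe sets with 1 symbol being 0.168 for 1382496 at 611 mg/kg. Which transcript each probe set reads was not analysed here, so a direction for Hnf4a depends on the probe set.

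LRH-1 mRNA (Nr5a2, probe set 1390965) was the receptor whose 3 probe sets all had positive differences at every dose. The vehicle rats had 9.78, 9.78, 9.76, 9.64 and 9.89. The rats at 76.5 mg/kg had 10.15, 10.09 and 9.73, those at 153 mg/kg 10.08, 9.88 and 9.80, those at 305.5 mg/kg 10.16, 9.84 and 10.14, and those at 611 mg/kg 9.95, 9.91 and 10.19. At 611 mg/kg all 3 rats were above the highest vehicle rat, as is the case, in either direction, for 18.6% of all genes. In all, 11 of 12 treated rats were above the vehicle mean and 8 above the highest vehicle rat. The difference was 0.25 ± 0.11 (SE) at 611 mg/kg, with an adjusted limma p of 0.196. For all treated rats together it was 0.22 ± 0.08 (SE), with an adjusted limma p of 0.149, and without 76.5 mg/kg rat 3 it was 0.25, with an adjusted limma p of 0.0444 where 7.13% of all genes were called. Probe sets 1384835 and 1387573 gave 0.28 and 0.21 at 611 mg/kg.

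Retinoic acid-related orphan receptor alpha (Rora, probe set 1379397), which activates clock and lipid genes through sites it shares with the REV-ERB repressors, had the largest difference of the 9 receptors. The vehicle rats had 6.91, 6.50, 6.67, 6.84 and 6.85, a mean of 6.76 ± 0.17 (SD, n = 5). The rats at 76.5 mg/kg had 6.64, 6.08 and 5.50, those at 153 mg/kg 6.10, 6.41 and 6.68, those at 305.5 mg/kg 6.37, 5.81 and 6.30, and those at 611 mg/kg 5.98, 6.51 and 6.65. All 12 treated rats were below the vehicle mean and 8 were below the lowest vehicle rat, but only the 305.5 mg/kg group lay wholly below the vehicle range. The difference was -0.69 ± 0.21 (SE) at 76.5 mg/kg, with an unadjusted limma p of 0.00519 and an adjusted p of 0.233. In that group the values of 6.08 and 5.50 came from rats 2 and 3, whose arrays stood apart. The value of rat 1, 6.64, lay inside the vehicle range.

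For all treated rats together the Rora difference was -0.50 ± 0.16 (SE), with an adjusted limma p of 0.0822. Without 76.5 mg/kg rat 1 the adjusted limma p was 0.0240 for all treated rats (difference -0.58) and 0.0419 at 76.5 mg/kg (difference -0.97), where 4.12% and 0.654% of all genes were called. This omission left only rats 2 and 3 at 76.5 mg/kg, on the arrays that stood apart (array weights 0.306 and 0.267). The slope over the rank of the dose was -0.09 per step, and over treated rats alone it was 0.07 per step, so the values did not follow the dose among treated rats. A further limit is the signal. The mean log2 signal of this probe set, 6.40, is close to the highest array median, also 6.40, no detection calls were used, and the other Rora probe set, 1380478, gave 0.20, -0.04, 0.05 and 0.01 at the 4 doses. The lower Rora signal was therefore seen at 1 of 2 probe sets.

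ERR alpha (Esrra, probe set 1374741), which drives mitochondrial and oxidative genes, was the steadiest of the receptors. Its residual SD was 0.11, above that of 19.9% of genes. The vehicle rats ranged from 8.51 to 8.76 and the treated rats from 8.42 to 8.79. The 4 differences lay between -0.05 and 0.04, and the interval at 611 mg/kg ran from -0.25 to 0.15.

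Thyroid hormone receptor beta (Thrb, probe set 1394456), the main thyroid hormone receptor of hepatocytes, had vehicle values of 10.37, 10.31, 10.11, 10.43 and 10.48. The rats at 76.5 mg/kg had 10.40, 10.70 and 9.95, on both sides of the vehicle range. The rats at 153 mg/kg had 10.52, 10.77 and 10.74, those at 305.5 mg/kg 10.89, 10.59 and 10.75, and those at 611 mg/kg 10.54, 10.75 and 10.52, all 9 above the highest vehicle rat. A group wholly outside the vehicle range was found for 12.7%, 13.7% and 18.6% of all genes at these 3 doses, and for 1, 2 and 2 of the 9 receptors. The difference was 0.33 ± 0.14 (SE) at 153 mg/kg, 0.40 ± 0.14 at 305.5 mg/kg and 0.26 ± 0.14 at 611 mg/kg, with adjusted limma p-values of 0.345, 0.166 and 0.249. Without 76.5 mg/kg rat 3 the adjusted limma p at 305.5 mg/kg was 0.0436, the difference being 0.40, and that for all treated rats was 0.0269 (difference 0.30), where 3.69% and 7.13% of all genes were called. Probe set 1378457 gave 0.40, 0.30 and 0.27 at the same 3 doses, probe set 1370474 gave 0.26, 0.39 and -0.01, and the dimmest Thrb probe set, 1387983, with a mean log2 signal of 4.15, gave -0.03, 0.06 and -0.05.

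**Figure D2:**
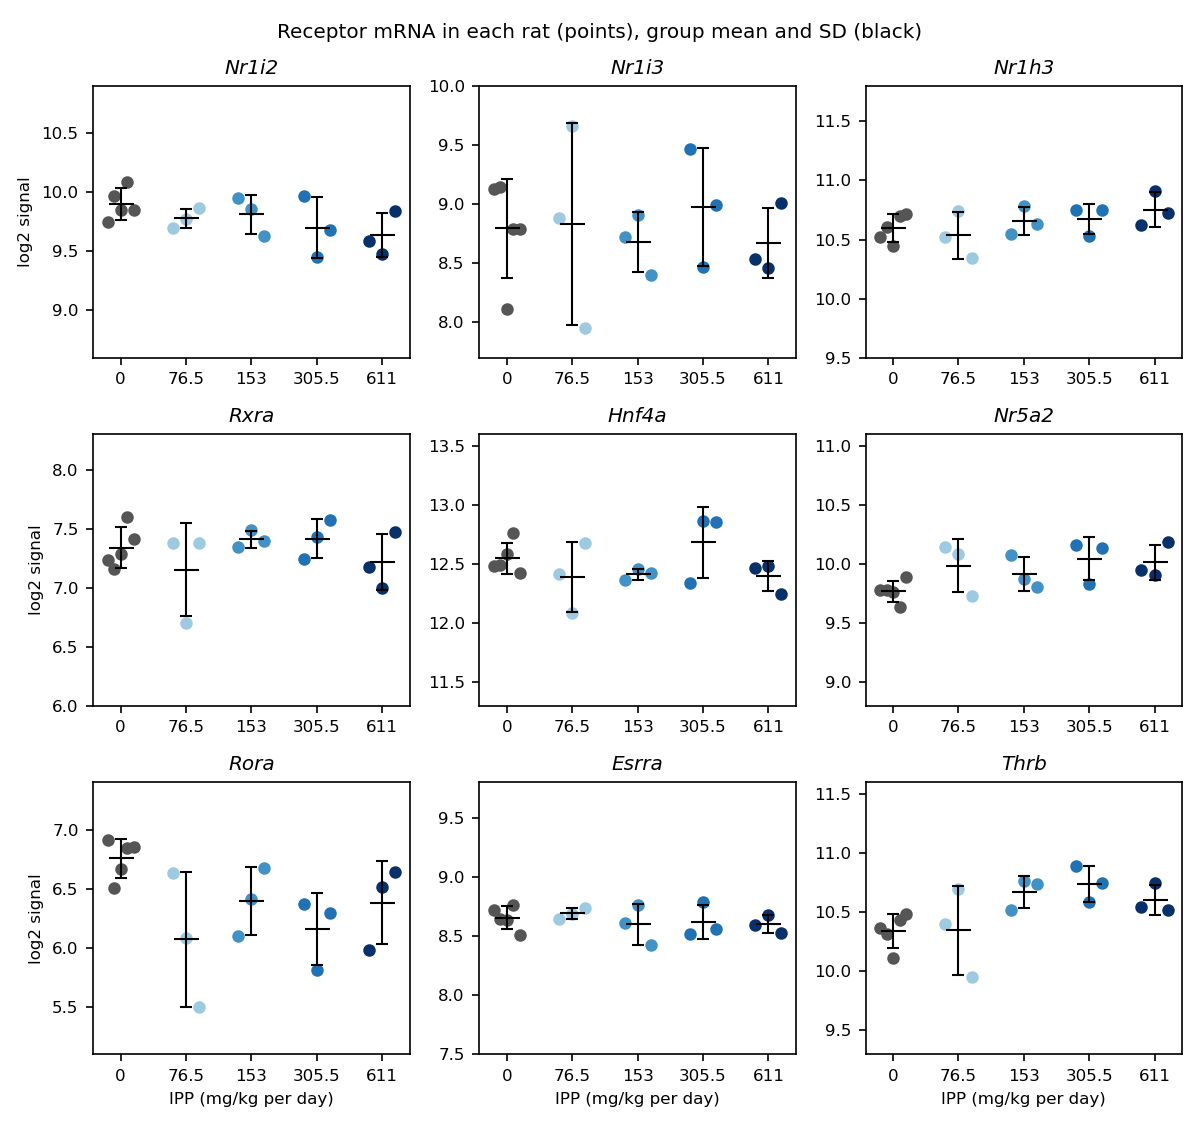
Log2 signal of the 9 receptor mRNAs by daily dose of IPP in mg/kg, 1 point per rat, with the group mean and SD in black (5 vehicle rats, 3 rats per dose); each panel's axis has the same span around its own gene. The 9 Thrb values at 153 mg/kg and above lie over all vehicle values, the 12 treated Rora values lie below the vehicle mean of 6.76, and Nr1i3 runs from 7.95 to 9.66 within the 76.5 mg/kg group.

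**Figure D3:**
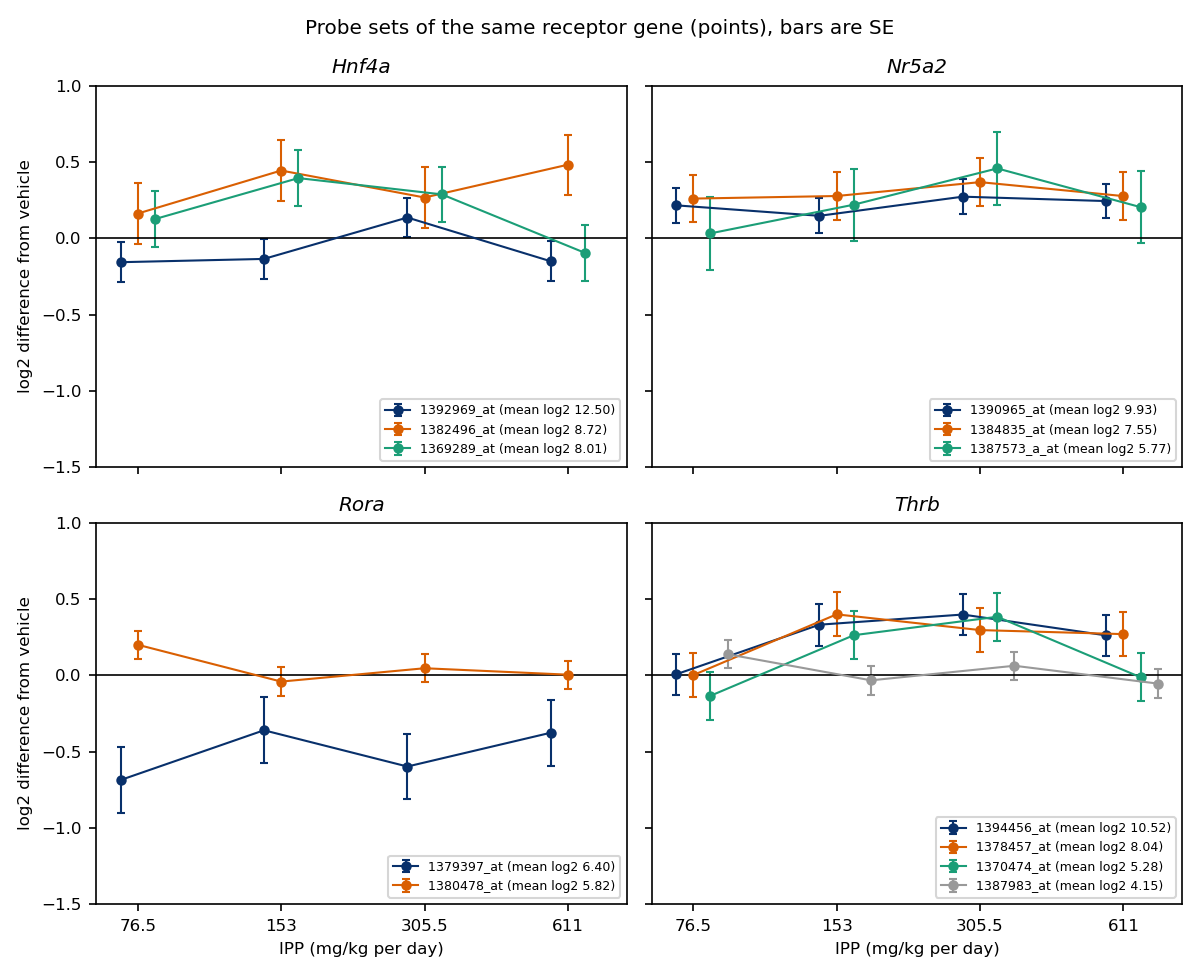
Log2 difference from vehicle with its SE against the daily dose of IPP in mg/kg, for each probe set of the 4 receptors that have several. The probe sets of Nr5a2 lie on the same side of 0 at every dose, those of Hnf4a lie on both sides at 76.5, 153 and 611 mg/kg, and the Rora probe sets differ, at 76.5 mg/kg by -0.69 against 0.20.

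Some other nuclear receptors on the same arrays did change. Of 39 listed, 33 were measured. At 76.5 and at 153 mg/kg 2 rose and 1 fell, at 305.5 mg/kg 2 rose, and at 611 mg/kg 5 rose and 1 fell. The share of all genes called was 0.267%, 0.746%, 2.22% and 7.46% from the lowest to the highest dose. The REV-ERB repressors of the clock rose at every dose: Nr1d1, with a vehicle mean of 5.88 ± 0.31 (SD, n = 5), was higher by 2.87, 3.32, 3.32 and 3.28, each with an SE of 0.22, and Nr1d2 by 1.35, 1.80, 1.84 and 2.03, each with an SE of 0.12. The limma adjusted p at 611 mg/kg was 1.2e-07 for Nr1d1 and 4.2e-08 for Nr1d2. All treated rats lay above the vehicle range for both genes. These repressors bind the sites that RORA uses, and Rora itself was not called.

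PPAR delta (Ppard), a fatty acid sensor, fell by 0.69 at 76.5 mg/kg, fell by 0.63 at 153 mg/kg and fell by 0.62 at 611 mg/kg (SE 0.13 each, adjusted limma p 0.0316, 0.0312 and 0.00875). Its difference at 305.5 mg/kg was -0.48, with an adjusted limma p of 0.065. At 611 mg/kg the glucocorticoid receptor (Nr3c1) rose by 0.52 ± 0.10 (SE), the mineralocorticoid receptor (Nr3c2) by 0.54 ± 0.12, and SHP (Nr0b2), a repressor that binds LRH-1 and other receptors, by 1.04 ± 0.27, with adjusted limma p-values of 0.00702, 0.0103 and 0.0287. Without 611 mg/kg rat 2 the adjusted limma p was 0.0579 for Ppard, 0.0651 for Nr3c2 and 0.0702 for Nr0b2, and the number of other receptors called at 611 mg/kg was 3. Without 76.5 mg/kg rat 3 it was 10. Nr0b2 also lost its call without vehicle rat 1, 2 or 5 or without 611 mg/kg rat 1 or 3, with adjusted limma p-values up to 0.0930. Of 22 listed receptor cofactors, proteins that receptors recruit to act on chromatin, 19 were measured, and by limma 0 of 19 were called at any dose, with 0, 2, 1 and 2 at an unadjusted p under 0.05 from the lowest to the highest dose. Among all genes 10.7%, 11.9%, 13.5% and 24.2% had an unadjusted limma p under 0.05 at these doses. The median difference of the cofactors lay between -0.03 and 0.05.

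Some targets of PXR and CAR rose while Nr1i2 and Nr1i3 were not called. Of 28 listed targets 18 were measured, and 3, 3, 6 and 8 rose from the lowest to the highest dose, with none called lower at a single dose and 15, 15, 12 and 10 not called. Among all genes 0.267%, 0.746%, 2.22% and 7.46% were called at these doses. The median difference of the targets was -0.004 at 76.5 mg/kg and 0.46 at 611 mg/kg, beside 0.01 and -0.003 for all genes. Ces2c, a carboxylesterase, had a vehicle mean of 8.92 ± 0.10 (SD, n = 5) and rose by 1.30, 1.38, 2.31 and 2.80, each with an SE of 0.16 (adjusted limma p at 611 mg/kg 2.0e-08). Abcc3, an exporter of conjugates, rose by 2.29, 1.99, 2.78 and 3.55 (SE 0.36). Ugt2b1, a glucuronosyltransferase, rose by 0.89, 1.12, 1.18 and 1.44 (SE 0.17), and Aldh1a1, an aldehyde dehydrogenase, by 0.97 at 305.5 mg/kg and 1.22 at 611 mg/kg (SE 0.16). For Ces2c, Abcc3, Ugt2b1 and Aldh1a1, all treated rats of every dose group lay above the vehicle range. Without 76.5 mg/kg rat 2 only 1 target was called at 76.5 mg/kg.

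Of the LXR targets called at single doses, all fell. All 14 listed were measured, with 0, 1, 3 and 4 lower and none higher from the lowest to the highest dose. Beside these counts, 0.267%, 0.746%, 2.22% and 7.46% of all genes were called. The median of the LXR targets was -0.14 at 611 mg/kg. Scd, the stearoyl-CoA desaturase, had a vehicle mean of 10.99 ± 0.96 (SD, n = 5) and fell by 2.75 at 153 and at 305.5 mg/kg, and fell by 3.23 at 611 mg/kg (SE 0.51, adjusted limma p 0.00129 at 611 mg/kg). At 611 mg/kg Pltp, a phospholipid transfer protein, fell by 0.74, Lpl, lipoprotein lipase, fell by 0.98, and Abcg8, a sterol exporter, fell by 1.12. Abcg8 lost its call without 611 mg/kg rat 1 or 2, with adjusted limma p-values of 0.0536 and 0.109. Nr1h3 had a difference of 0.16 at that dose.

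The targets of HNF4A and LRH-1 had median differences of 0.03 and -0.03 at 611 mg/kg. Of 20 listed HNF4A targets 14 were measured. At 611 mg/kg Cyp8b1, the sterol 12-alpha-hydroxylase of bile acid synthesis, rose by 0.82 ± 0.15 (SE, adjusted limma p 0.00394) and no other was called. That is 7.14% of the measured list, beside 7.46% of all genes. The differences of Cyp7a1, the rate-limiting enzyme of bile acid synthesis, were 0.67, 1.72, 1.98 and 2.05, each with an SE of 0.74, and the adjusted limma p at 611 mg/kg was 0.102. It was 0.0411 without 76.5 mg/kg rat 2 and 0.00637 without rat 3 of that group. These omissions change the shared variance estimate and not the difference at 611 mg/kg. Pck1, of gluconeogenesis, had 0.44 and Apoa2, an apolipoprotein, 0.13 at 611 mg/kg, and neither was called. Of the LRH-1 targets 11 of 12 were measured, and at 611 mg/kg Cyp8b1 and Nr0b2 rose and Abcg8 fell. Apom, an apolipoprotein, had 0.22 with an adjusted limma p of 0.0551. The number of LRH-1 targets called at 611 mg/kg was 5 without 76.5 mg/kg rat 2 or 3 and 1 without 611 mg/kg rat 1 or 2.

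Clock genes that ROR and REV-ERB proteins act on, or that belong to the same loop, had the largest share called of the target lists. Of 15 listed 12 were measured. At 76.5 mg/kg 3 rose and 1 fell (0.267% of all genes were called), and at 153, 305.5 and 611 mg/kg 5 rose and 4 fell (0.746%, 2.22% and 7.46% of all genes). The genes that rose at each dose include Nr1d1 and Nr1d2, which were already counted among the other receptors. Dbp, a clock output factor, rose by 2.34, 3.50, 4.20 and 4.18 (SE 0.38). Npas2, a partner of BMAL1, fell at the 3 higher doses (differences of -0.89, -1.15 and -1.56, SE 0.17), and its difference at 76.5 mg/kg was -0.77. Without 153 mg/kg rat 2 the count at 153 mg/kg was 4, and the count at 76.5 mg/kg was 2 without rat 2 and 7 without rat 3 of that group. The time of day of sampling is not given in the sources used here, and its part in these values was not tested.

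Among targets of ERR alpha, 17 of 20 were measured, and at 611 mg/kg Pdk4, a kinase that restrains pyruvate oxidation, fell by 1.25 ± 0.28 (SE, adjusted limma p 0.0113). It lost its call without 611 mg/kg rat 2 or 3, with adjusted limma p-values of 0.0829 and 0.0531. Cpt1b and Acadm, of fatty acid oxidation, had -0.43 and -0.24, with adjusted limma p-values of 0.0514 and 0.0535, and Ndufs1, of respiratory complex I, 0.21. Among thyroid hormone receptor targets 18 of 20 were measured, and Thrsp, which promotes fat synthesis, rose by 1.18, 1.34 and 1.08 at 153, 305.5 and 611 mg/kg (SE 0.25, adjusted limma p 0.0323, 0.00735 and 0.0146). Its adjusted limma p at 611 mg/kg was 0.0684 without rat 3 of that group. Hectd3, Nrgn and Pck1 had 0.27, -0.37 and 0.44 at 611 mg/kg and were not called. At 611 mg/kg 5.88% of the ERR alpha list and 5.56% of the thyroid hormone receptor list were called, beside 7.46% of all genes. The share of all genes called was 0.746% at 153 mg/kg and 2.22% at 305.5 mg/kg. Without 76.5 mg/kg rat 2 the counts at 611 mg/kg were 2 for HNF4A, 3 for ERR alpha and 3 for thyroid hormone receptor targets, and without rat 3 of that group they were 2, 3 and 4. Without vehicle rat 4 they were 2 for each of these lists, and without 611 mg/kg rat 1 that of ERR alpha was 2.

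For all treated rats together and for the slope over the rank of the dose, the target lists gave further calls, beside 4.01% and 6.74% of all genes. Among CAR and PXR targets 8 rose in both, and Cyp2b3, a cytochrome P450, had a lower slope (-0.06 per step). Among LXR targets 3 fell for all treated rats, and in the slope 5 were lower and Cyp7a1 was higher. Cyp7a1 rose by 0.56 per step (adjusted limma p 0.0372). It is also in the HNF4A and LRH-1 lists, of which 2 of 14 (both higher) and 6 of 11 (4 higher, 2 lower) were called in the slope. For all treated rats 1 HNF4A target and 1 LRH-1 target rose, Cyp8b1 in both lists, and the LRH-1 target Abcg8 fell. Pdk4 and Cpt1b were lower for all treated rats (-1.03 and -0.36, adjusted limma p 0.00629 and 0.0386), and the slopes of Pdk4, Cpt1b and Acadm were lower. Thrsp and Acaca, an enzyme of fat synthesis, rose for all treated rats, and Thrsp, Cyp7a1 and Hectd3 had higher slopes. The clock list gave 5 higher and 4 lower in both.

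Several of these calls depended on single rats. Of the 17 omissions of 1 rat, 9 ended the slope call of Cyp7a1 (each vehicle rat, 305.5 mg/kg rats 1 and 3, 611 mg/kg rats 2 and 3), 12 that of Cyp2b3 and 8 that of Hectd3. For the slopes of Cpt1b and Acadm 5 omissions each did so, and for that of Nr0b2 7. For all treated rats, 10 omissions ended the call of Cpt1b and 12 each those of Acaca and Abcg8. The 8 CAR and PXR targets called for all treated rats became 4 without vehicle rat 4 and 5 without vehicle rat 2, 3 or 5 or without 153 mg/kg rat 2, with Ces2c, Abcc3, Ugt2b1 and Aldh1a1 called in each case.

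**Figure D4:**
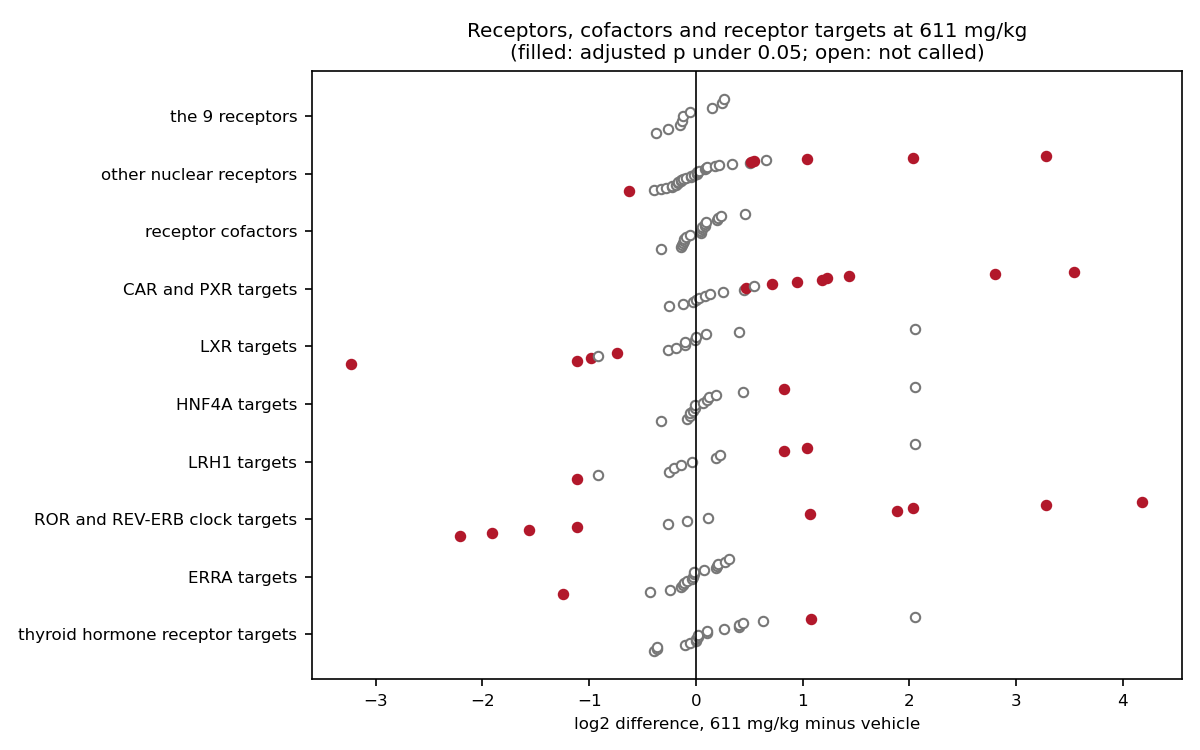
Log2 difference, 611 mg/kg minus vehicle, 1 point per measured gene, for the 9 receptors, 33 other nuclear receptors, 19 cofactors and 7 lists of receptor targets; filled points have an adjusted limma p under 0.05, and a gene of several lists appears in each. No filled point lies among the 9 receptors or the cofactors, and 8 of 18 CAR and PXR targets and 9 of 12 clock targets are filled.

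Markers of endothelial, stellate and macrophage cells had lower mean signals at 305.5 and 611 mg/kg. The mean over 8 endothelial markers differed from vehicle by -0.38 log2 units at 305.5 mg/kg (rats from -0.54 to -0.28) and by -0.46 at 611 mg/kg (rats from -0.53 to -0.39), and all 6 of these rats were below every vehicle rat. At 611 mg/kg 5 of the 8 were called lower (3 without 611 mg/kg rat 1), and at 305.5 mg/kg 1 was. At 305.5 and 611 mg/kg 2.22% and 7.46% of all genes were called, and 13.5% and 24.2% had an unadjusted limma p under 0.05. The means over 12 stellate and fibroblast markers were -0.31 and -0.39 and those over 8 macrophage markers -0.38 and -0.28 at these doses. Of 3 rats per dose, 2 and 3 were below every vehicle rat for the stellate mean. For the macrophage mean 2 and 1 were, so it overlapped the vehicle range at both doses. The mean over 9 hepatocyte markers was 0.15 and -0.03. The value of 0.15 at 305.5 mg/kg rests on Tat, which differed by 1.35. The other hepatocyte markers lay between -0.25 (Ass1) and 0.16 (Apoa1) at that dose. At 611 mg/kg 2 of the 12 stellate and fibroblast markers were called lower (1 without vehicle rat 5 or 611 mg/kg rat 3, 4 without 76.5 mg/kg rat 2). By limma 0 of the 8 macrophage markers were called at either dose, with 5 and 4 at an unadjusted p under 0.05. Of these 2 were called at 611 mg/kg without 611 mg/kg rat 1 and 1 without vehicle rat 2, and 1 hepatocyte marker was called without 611 mg/kg rat 1. The mean over 6 cholangiocyte markers was -0.01 and 0.03 at these doses, and at the higher one Epcam rose by 0.72 and Krt7 fell by 0.43. Both lost their call without rat 2 of the 611 mg/kg group, and Krt7 also when rat 3 of that group or one of vehicle rats 1, 3 and 4 was omitted. The mean over 8 lymphocyte markers was -0.09 and -0.15, with 0 called by limma and 2 and 3 at an unadjusted p under 0.05, and 1 was called at the higher dose without 611 mg/kg rat 1. No marker was at 0, since these log2 signals have no zero. The part of cell makeup in the receptor values was not tested.

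Nr1h3 and Thrb varied together from rat to rat. Over the 17 rats Pearson's r was 0.80 (permutation p = 0.00024, 0.00864 after Benjamini-Hochberg adjustment) and Spearman's rho was 0.83 (permutation p = 0.00011, adjusted 0.00396), among 36 pairs of receptors, tests chosen after the receptor values had been seen. This was the only pair to pass the adjustment, while 8 passed unadjusted. Without the 2 rats farthest from the median of Nr1h3, r was 0.71, and without the 3 arrays that stood apart it was 0.70 over 14 rats. For residuals from the group means, which set the dose aside, r was 0.88. The 3' minus 5' GAPDH difference, a measure of RNA quality, correlated with Nr1h3 (r = 0.53) and less with Thrb (r = 0.21), and its part in the relation was not tested.

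**Figure D5:**
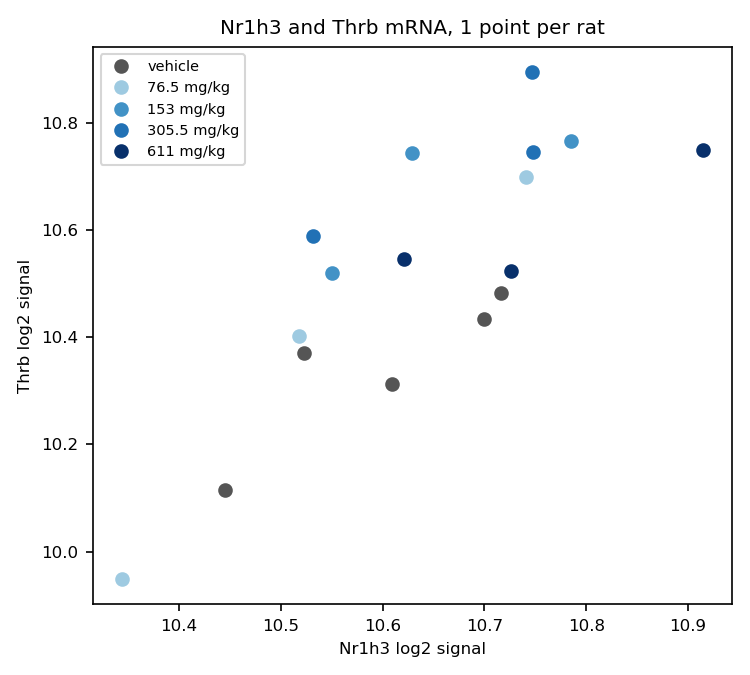
Thrb against Nr1h3, both as log2 signal, 1 point per rat, coloured by dose. Points run from lower left to upper right (r = 0.80 over 17 rats), and the lowest rat for both genes is in the 76.5 mg/kg group.

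The start windows of these genes are shown because their mRNAs varied together. That of Nr1h3 is at chr3:97623180-97623479 and that of Thrb at chr15:10461397-10461696, both on the minus strand of GRCr8, with capitals marking GTTAAT, here on the reverse strand.
Nr1h3: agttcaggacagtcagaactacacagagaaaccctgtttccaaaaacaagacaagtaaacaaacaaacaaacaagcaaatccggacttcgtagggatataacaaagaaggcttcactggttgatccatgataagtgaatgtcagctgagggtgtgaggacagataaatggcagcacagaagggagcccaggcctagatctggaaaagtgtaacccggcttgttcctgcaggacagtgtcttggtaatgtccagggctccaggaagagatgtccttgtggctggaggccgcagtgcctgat
Thrb: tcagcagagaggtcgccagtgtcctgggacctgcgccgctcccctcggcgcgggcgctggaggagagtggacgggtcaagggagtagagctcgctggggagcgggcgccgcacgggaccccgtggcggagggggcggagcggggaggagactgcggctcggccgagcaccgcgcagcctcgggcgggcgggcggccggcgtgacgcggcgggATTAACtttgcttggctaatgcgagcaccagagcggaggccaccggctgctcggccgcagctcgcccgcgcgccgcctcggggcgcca
The base composition of the windows differed. GC content was 48.0% in the Nr1h3 window and 76.0% in that of Thrb, with 4 and 43 CpG dinucleotides. Rxra (84.7%), Rora (74.7%) and Esrra (72.0%) also had GC-rich windows, while those of Nr1i2, Nr1i3, Hnf4a and Nr5a2 lay between 45.0% and 55.3%, and the median over all RefSeq windows was 51.7%. The motifs searched on both strands were the half-sites AGGTCA and, for HNF1, GTTAAT, the ROR element TAGGTCA and the extended half-site AAGGTCA, both of which contain AGGTCA, the E-box CACGTG, the D-box TTATGTAA, and direct repeats of the half-site spaced by 4 bases and by 1 base. Of all RefSeq windows, TAGGTCA was in 2.63%, AAGGTCA in 4.61%, CACGTG in 6.42%, TTATGTAA in 0.893%, and the repeats in 0.00598% and 0.0538%, and none of these was in a window of the 9 receptors. Neither window held AGGTCA, and the only match in either was 1 GTTAAT in that of Thrb, from -38 to -33 counted from its start.

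Each receptor but Rxra was also set beside the mean of a target list over the 17 rats. The 8 relations were chosen after the values had been seen. Genes of a list entered the mean with the same sign, whichever way a receptor acts on them. The clock list set beside Rora also holds genes of the same loop, and for all treated rats 5 of its genes rose and 4 fell. The mean of that list is therefore not a measure of targets of Rora alone. Thrb correlated with the mean of 18 thyroid hormone receptor targets with r = 0.62 (permutation p = 0.0077, adjusted 0.0357) and rho = 0.54 (adjusted permutation p = 0.0968). Without the 2 farthest rats r was 0.52, and within groups it was 0.21, so the relation was weaker once the dose groups were set aside. Nr5a2 correlated with the mean of 11 LRH-1 targets with r = 0.59 (permutation p = 0.00893, adjusted 0.0357) and rho = 0.57 (adjusted permutation p = 0.0968). Here r was 0.64 without the 2 farthest rats and 0.67 within groups. Nr1i2 and Nr1i3 had r = -0.43 (adjusted permutation p = 0.181) and r = 0.12 (adjusted 0.66) with the mean of the CAR and PXR targets, and within groups r was 0.30 and 0.45. The other 4 relations, Nr1h3, Hnf4a, Rora and Esrra with their lists, had r between -0.42 and -0.16, and none passed the adjustment. Within groups they lay between -0.48 and -0.24 for Nr1h3, Hnf4a and Esrra, and for Rora r was -0.38 over all rats and 0.43 within groups.

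The genes whose signal most resembled each receptor over the 17 arrays were listed by Pearson's r against 14216 other genes, a description that shares arrays, normalization and RNA quality. For Thrb they were Usp54 (r = 0.92) and Tcf7l2 (r = 0.90), with r of 0.85 and 0.89 within groups. For Nr1h3 they were Mbnl1 (0.89) and Arid1b (0.88), for Nr5a2 Csrnp1 (0.87) and Igf2r (0.86), and for Rora Fchsd2 (0.86) and Tmcc3 (0.84). Rxra was most like Asxl2 and Mug1 (both 0.87), and without the 2 farthest arrays the r with Asxl2 was 0.60. Hnf4a was most like Grm6 (0.87) and Gtpbp4 (0.82), Nr1i3 like Snapc4 (0.83) and Negr1 (0.78), Nr1i2 like Shld2 (0.81) and Ahcy (0.79), and Esrra like Rcan3 and Neurl4 (both 0.79).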

How the data were processed

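The values were deposited by the authors on a log2 scale, 1 column per rat, and RMA, which corrects background, equalises the arrays' distributions and summarises the probes of a set, is named in the submitters' processing notes. Its software version is not given in the sources used here. Of 31099 probe sets, 57 controls were left out, and 20826 carried 1 gene symbol in the platform annotation. Each of 14217 genes was read at the probe set brightest on average across 17 arrays. Groups came from the sample labels.

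Tests of differences used limma 3.58.1 (R 4.3.3) (lmFit and eBayes with trend, tested on simulated data), with Benjamini-Hochberg adjustment within each comparison and a threshold of 0.05. Correlations used 1e+05 permutations. Target and cofactor lists are described by counts and medians. Named were the 9 receptors, called members of the lists of other receptors and cofactors, up to 4 targets per list by smallest p at 611 mg/kg, and the 2 genes most like each receptor. Cyp2b3, Acaca, Epcam and Krt7 were named after their values had been seen. Members and lists were chosen with earlier results of these data known, and nothing here is independent support for those results. Start windows came from RefSeq (GRCr8), and 9 of 9 receptors matched by gene ID. Alternatives tried were array weights, 2 other scalings, a filter that left out the dimmest 40% of genes, averaging or separate testing of probe sets, robust or untrended eBayes, a replicate block, the compared groups alone, omission of 3 arrays or of each rat, a GAPDH covariate, a threshold of 0.01 and other slopes.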

Additional observations from a re-analysis of the deposited data

Results flagged for a closer look

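Nr3c2 in vehicle rat 4 had a log2 signal of 6.57, while the other vehicle rats lay between 6.90 and 7.00. Its gap to the nearest rat was 0.773 of the range of the 5 vehicle rats, more than Dixon's test allows at 95% confidence. In all, 37 genes were tested in this way over the vehicle group, and chance alone gives about 1 in 20.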

How the results depend on the processing

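No receptor was called in any of the 8 comparisons, and 226 of 240 alternative counts were also 0. The others were as follows. With array weights, 1 receptor was called at 76.5 mg/kg (Nr5a2), 1 at 305.5 mg/kg (Thrb), 1 at 611 mg/kg (Nr5a2), 2 for all treated rats (Nr5a2, Thrb), 1 for the slope (Thrb) and 3 for any difference (Hnf4a, Nr5a2, Thrb). This setting called 4.90% of all genes at 76.5 mg/kg, 7.84% at 305.5 mg/kg and 13.3% at 611 mg/kg. It called 11.7% for all treated rats, 10.2% for the slope and 17.6% for any difference. The weights at 76.5 mg/kg were 5.04 for rat 1 and 0.306 and 0.267 for rats 2 and 3. The weighted results at that dose, the Nr5a2 call among them, therefore rest mostly on rat 1. Without the 3 arrays that stood apart, 1 receptor was called at 305.5 mg/kg (Thrb), 1 for all treated rats (Nr5a2) and 1 for the slope (Rora), beside 5.47%, 6.25% and 8.52% of all genes. Omitting those 3 arrays left only rat 1 in the 76.5 mg/kg group. With only the groups compared, 2 were called at 305.5 mg/kg (Rora, Thrb), beside 4.49% of all genes. Leaving out each rat gave 0 to 1 at 76.5 and at 305.5 mg/kg, 0 to 2 for all treated rats and 0 in the other comparisons. Of all genes, 0.654% were called at 76.5 mg/kg without rat 1 of that group and 4.12% for all treated rats, and without rat 3 it was 3.69% at 305.5 mg/kg and 7.13% for all treated rats.

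Single differences changed direction in 70 of 1569 alternatives, 38 of them on leaving out a rat. None of these values was called, and the cause was not tested. With the mean over probe sets Hnf4a was 0.0446 at 76.5 mg/kg, 0.24 at 153, 0.0794 at 611, 0.15 for all treated rats and 0.0392 for the slope. Thrb at 76.5 mg/kg was -0.00829 with median centring and -0.00577 with repeated quantile normalization. With array weights Rxra was 0.0185 at 76.5 mg/kg, 0.0196 at 611, 0.0692 for all treated and 0.0223 for the slope, and Nr1i3 was 0.0292 at 611, 0.0277 for all treated and 0.0133 for the slope. Without the 3 arrays Rxra was 0.0431 at 76.5 mg/kg, 0.0437 for all treated and 0.00819 for the slope. Esrra was then -0.00623 at 76.5 mg/kg, and Nr1i3 was 0.034 for all treated and 0.0146 for the slope. The values at 76.5 mg/kg are those of rat 1 alone minus the vehicle mean. With the GAPDH covariate Nr1i3 was 0.00167 for all treated and the Rxra slope 0.0103. The slope without 611 mg/kg was 0.0353 for Nr1i3, 0.0376 for Rxra and 0.0292 for Hnf4a, and over treated rats alone it was 0.0189 for Rxra, 0.0289 for Hnf4a and 0.0694 for Rora.

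With a replicate block on the rat number, 0 receptors were called in each comparison. Numbers 4 and 5 occur only among vehicle rats, so under the block these rats add nothing to the differences. Nr1h3 at 76.5 mg/kg was then 0.00863, Rxra 0.0739 for all treated and 0.0242 for the slope, and the Hnf4a slope 0.00538. Same-numbered rats correlated between -0.26 and 0.40 in their deviations from group means (median 0.01), and 6 of 15 rats correlated best with their own number, so the numbers were not taken as pairs. Under the block 3 in place of 6 other receptors were called at 611 mg/kg, and in the slope 3 in place of 6 LRH-1 targets and 0 in place of 2 HNF4A targets.

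Leaving out each rat gave ranges that include 0 for Nr1i3 (-0.38 to 0.48 at 76.5 mg/kg, -0.29 to 0.0238 at 153, -0.0629 to 0.44 at 305.5, -0.18 to 0.10 for all treated, -0.0475 to 0.0145 for the slope), Nr1h3 (-0.17 to 0.0308 at 76.5, -0.00895 to 0.11 at 153) and Rxra (-0.30 to 0.0421 at 76.5, -0.000804 to 0.16 at 305.5, -0.0847 to 0.0264 for all treated, -0.0154 to 0.021 for the slope). The same held for Thrb (-0.17 to 0.21 at 76.5 mg/kg), Nr1i2 (-0.16 to 0.00425 at 153), Esrra (-0.14 to 0.0358 at 153, -0.12 to 0.0177 at 305.5, -0.0623 to 0.00153 for all treated) and the Hnf4a slope (-0.0204 to 0.011).

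Target counts at 611 mg/kg ranged over all alternatives from 7 to 10 for CAR and PXR, 8 to 9 for the clock list, 2 to 6 for LXR, 1 to 4 for HNF4A, 1 to 5 for LRH-1, 0 to 3 for ERR alpha and 0 to 4 for the thyroid hormone receptor.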
